A study of Mus musculus with 6 samples.

Results

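The 10 immediate early genes described here are Fos, Fosb, Jun, Junb, Jund, Egr1, Atf3, Ier2, Ier3 and Myc, chosen by name from a table of read pair counts for 25184 genes. All 10 were found in the table and all 10 passed the filter on low counts. They were measured by stranded poly(A) RNA sequencing of primary hepatocytes in 6 libraries, 3 of the genotype Sucnr1 fl/fl (fl/fl libraries 1 to 3) and 3 of the genotype Hep-Sucnr1 KO (KO libraries 3 to 5). The labels do not say whether each library came from its own mouse, so every p value measures the spread between these samples, which may be partly technical. In both genotypes Sucnr1, which encodes the receptor for extracellular succinate, was floxed on both alleles, with loxP sites around exon 2. Hep-Sucnr1 KO mice also carried 1 Alb-Cre allele, in which the albumin promoter drives Cre recombinase in hepatocytes, and Sucnr1 fl/fl controls were Cre-negative. The mice were fed chow, their age is not given in the sources used here, and the hepatocytes came from the left lateral lobe by enzymatic digestion and density gradient centrifugation. The cells were kept overnight on collagen in high-glucose medium with serum and harvested without further treatment, and no stimulus was added. The labels give extraction day 1 for fl/fl library 1 and KO library 3, and day 2 for the other 4 libraries. The comparison asks whether early response mRNA levels in these cultures differ with hepatocyte Sucnr1.

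Immediate early genes are transcribed within minutes of a growth factor, hormone or stress signal, without new protein synthesis, and their mRNAs and proteins are short-lived. Kinase cascades act on factors already bound to their promoters, such as SRF with its ternary complex partners and CREB, and the products, mostly transcription factors, then set the next round of transcription. FOS proteins pair with JUN proteins to form the AP-1 factor, EGR1 is a zinc finger activator, ATF3 is a stress-induced factor of the same leucine zipper class, and MYC drives growth and ribosome synthesis. In liver these genes are known for their rapid induction after partial hepatectomy and during the isolation of hepatocytes by digestion.

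Promoter windows were searched because transcription of these genes is set in part close to their starts. Only the 250 bases before each start were searched, so a site further upstream could not be found. RefSeq windows were found for 7 of the 10 genes (GRCm38.p6), those of Fos, Fosb, Jun, Junb, Jund, Atf3 and Ier3. The window of Jund belongs to a RefSeq start that lies upstream of the gene in the annotation used here, and its sequence is not shown. The window of Atf3 belongs to a RefSeq start inside the annotated gene, downstream of the gene's 5′ end at 191218039. The last 120 bases before the start are printed for the 4 genes with a match to any of the motifs searched, 5′ to 3′, with matches in capitals.
Fos (chr12:85473770-85473889, plus strand): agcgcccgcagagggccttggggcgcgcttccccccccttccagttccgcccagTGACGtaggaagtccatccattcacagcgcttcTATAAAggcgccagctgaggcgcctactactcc
Fosb (chr7:19310046-19310165, minus strand): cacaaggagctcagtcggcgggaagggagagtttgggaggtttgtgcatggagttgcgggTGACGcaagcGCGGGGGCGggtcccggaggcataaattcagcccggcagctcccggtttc
Junb (chr8:84978749-84978868, minus strand): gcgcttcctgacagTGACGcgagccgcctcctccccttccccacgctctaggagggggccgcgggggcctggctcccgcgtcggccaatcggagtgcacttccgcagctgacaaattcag
Atf3 (chr1:191183334-191183453, minus strand): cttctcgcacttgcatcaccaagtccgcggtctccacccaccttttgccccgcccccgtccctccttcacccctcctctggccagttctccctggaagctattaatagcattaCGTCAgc
The half-site of the cAMP response element, TGACG on either strand, stood in the 250 bases before the start of these 4 genes and in 17.8% of 32851 RefSeq windows of the same length. It was added to the search after the sequences had been seen. In Atf3 the match lies on the reverse strand, so its complement is in capitals. A TATA box with the letters TATAAA was found in Fos and in 12.4% of all windows. An EGR site with the letters GCGTGGGCG or GCGGGGGCG was found in Fosb and in 3.06% of all windows. The 7 windows held no match to the full cAMP response element, spelled TGACGTCA, which stood in 1.55% of all windows and contains the half-site. They held none to the AP-1 site, spelled TGACTCA (4.46% of all windows), none to the E-box of MYC, spelled CACGTG (6.02%), and none to the CArG box of SRF (1.47%). Both strands were searched, and a match describes letters, not binding.

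The libraries held between 30504248 and 38770694 counts on genes, and each member had between 204 and 33010 counts in a library. Levels are given as CPM, the counts of a gene relative to the library's TMM-scaled total. Counting error was at most 7% of a value, reached by Fosb. The deleted gene Sucnr1 was measured at 6.71, 3.55 and 3.39 CPM in fl/fl libraries 1, 2 and 3 and 2.66, 0.827 and 0.152 CPM in KO libraries 3, 4 and 5. The genotypes were separated, with KO library 3 just under the lowest fl/fl library, and counts can come from exons outside the deleted exon. The cause of the spread among the KO libraries was not tested. For KO relative to fl/fl libraries the log2 fold change of Sucnr1 was −2.23 (standard error 0.54, 95% interval −3.50 to −0.96). Its FDR by edgeR's quasi-likelihood test was 0.998, so the deleted gene was not called. The libraries carried the markers of their labelled cell type, with a summed level of 10 hepatocyte genes (Alb, Apoa1, Apob and others) between 55029.6 and 85529.5 CPM. In bulk RNA fewer cells of a type and less RNA per cell cannot be told apart.

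After overnight culture Junb, Jund and Atf3 led the immediate early genes per length and the FOS genes had the lowest means. Levels between genes were compared as CPM per kilobase of merged exons. Junb was highest at 329.7 ± 37.6 CPM per kilobase (SD, n = 6 libraries), followed by Jund at 234 ± 28.8, Atf3 at 181 ± 24.6 and Ier3 at 148 ± 35.0. Jun stood at 88.6 ± 13.9 CPM per kilobase. A lower group held Ier2 at 42.1 ± 5.48, Myc at 39.9 ± 5.96, Egr1 at 37.6 ± 8.03 and Fos at 23.8 ± 3.74 CPM per kilobase. Fosb was lowest at 1.54 ± 0.400 CPM per kilobase.
The ranges over the 6 libraries did not touch between Junb and Jund, between Jun and Ier2 and between Fos and Fosb, so these steps exceeded the spread. Jund was above Atf3 and Atf3 above Ier3 in each of the 6 libraries although their ranges overlapped. Ier2, Myc and Egr1 could not be ordered, with Ier2 above Myc in 4 and Myc above Egr1 in 5 of 6 libraries. Nor could Egr1 and Fos, with Egr1 above Fos in 5 of 6 libraries and overlapping ranges. By mean CPM, without regard to length, the members lay between percentile 52.6 (Fosb) and percentile 98.9 (Junb) of the 15105 genes tested.

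**Figure D1:**
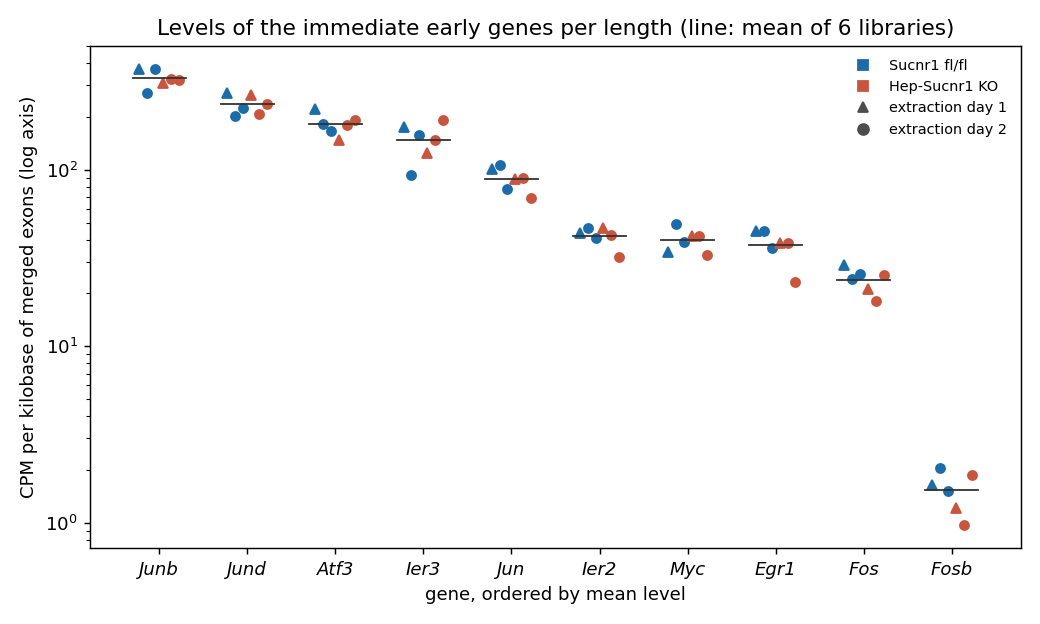
CPM per kilobase of merged exons (log axis) of each immediate early gene in the 6 libraries, ordered by mean level, with triangles for extraction day 1, circles for day 2 and a line at the mean. Junb lay between 273 and 373, and Fosb between 0.965 and 2.04 CPM per kilobase.

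Within the JUN family Junb took the highest share in all 6 libraries. Junb made up 46.9 to 55.1% of the summed CPM per kilobase of Jun, Junb and Jund, Jund 33.3 to 39.7% and Jun 11 to 18.2%. Within the FOS family Fos took 40.8 to 57.8% and Fosb 2.41 to 4.18%, with Fosl1, a FOS relative that persists longer after a stimulus, at 26.7 to 47.1% and Fosl2 at 8.62 to 15.5%. The shares of the genotypes overlapped for each of these 7 genes.

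None of the 10 immediate early genes was called different by genotype, in a fit that did not call Sucnr1 either. The 3 fl/fl and 3 KO libraries overlapped for 10 of 10 genes. Mean CPM was lower in Hep-Sucnr1 KO for 8 genes and higher for 2, Jund and Ier3. With edgeR's quasi-likelihood test, 0 of 10 members had an FDR below 0.05, and the FDR was 0.998 for every member, beside 0% called among all genes tested. DESeq2's Wald test, the other tool run, called 13 of all genes and 0 members, but it gave Fosb no adjusted p, so Fosb could not be called. The members' unadjusted p values ran from 0.102 to 0.828, so 0 of 10 were below 0.05, where 3.73% of all genes tested were. Groups that did not overlap were found for 4.04% of all genes with Hep-Sucnr1 KO lower and 6.55% with it higher, and for 0 members. Two-sided exact permutation tests of mean CPM gave p values from 0.2 to 0.9, and 3 libraries against 3 cannot give a p below 0.1. The median log2 fold change of the members was −0.12, beside 0.00296 over all genes tested.

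**Figure D2:**
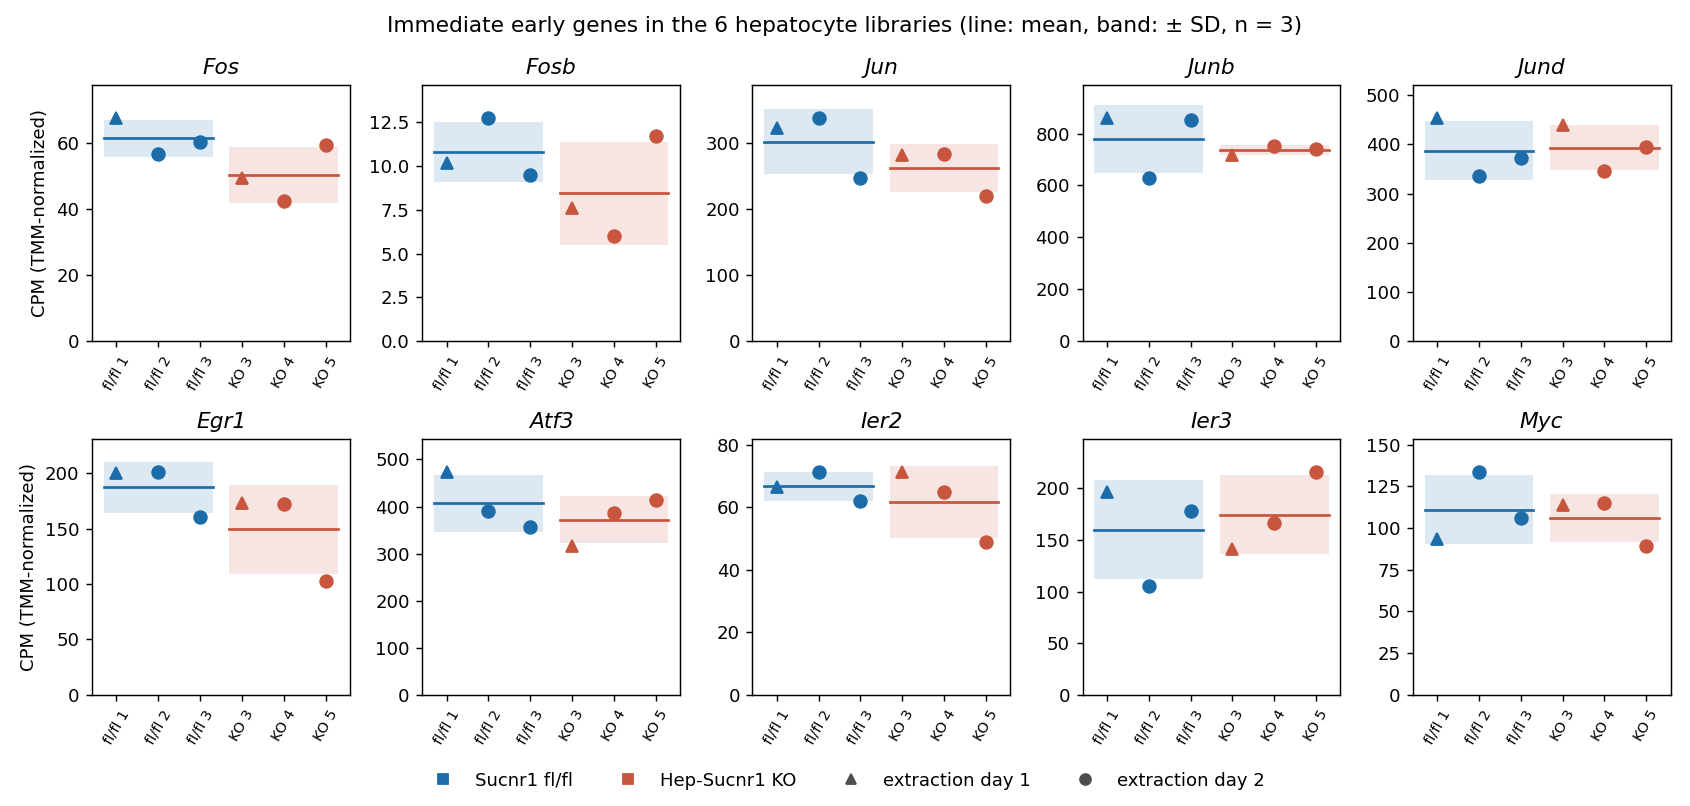
TMM-normalized CPM of each immediate early gene in the 3 Sucnr1 fl/fl (blue) and 3 KO libraries (red), with triangles for extraction day 1 and circles for day 2, a line at the mean and a band of ± 1 SD. Points of the genotypes overlap in each of the 10 panels, whose axes start at 0.

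Among the FOS genes, Fos (ENSMUSG00000021250, chromosome 12 from 85473890 to 85477273 of GRCm38), the prototype immediate early gene, was measured at 67.4, 56.5 and 60.3 CPM in fl/fl libraries 1, 2 and 3 and 49.4, 42.5 and 59.3 CPM in KO libraries 3, 4 and 5. KO libraries 3 and 4 were the lowest of the 6, and KO library 5 lay within the fl/fl range. The means were 61.4 ± 5.55 CPM in the fl/fl and 50.4 ± 8.45 CPM in the KO libraries (SD, n = 3 per genotype). For KO relative to fl/fl libraries, the log2 fold change was −0.28 (standard error 0.15, 95% interval −0.64 to 0.073). Fosb (chromosome 7 from 19302696 to 19310051), its paralog, was measured at 10.2, 12.7 and 9.49 CPM in fl/fl libraries 1, 2 and 3 and 7.59, 6.02 and 11.7 CPM in KO libraries 3, 4 and 5. It showed the same order of the KO libraries, with KO library 4 lowest and KO library 5 second only to fl/fl library 2. Its log2 fold change was −0.36 (standard error 0.26, 95% interval −0.97 to 0.25), the most negative estimate of the 10 and with a wide interval. Without KO library 5 the log2 fold changes were −0.46 for Fos and −0.68 for Fosb, and without KO library 4 they were −0.18 and −0.14.

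The JUN genes, whose products pair with FOS proteins or with each other, were given estimates on either side of 0. Jun (chromosome 4 from 95049034 to 95052222) was measured at 323, 338 and 247 CPM in fl/fl libraries 1, 2 and 3 and 283, 284 and 220.4 CPM in KO libraries 3, 4 and 5. Its highest level was in fl/fl library 2 and its lowest in KO library 5, and its log2 fold change was −0.21 (standard error 0.17, 95% interval −0.61 to 0.20). It was −0.066 without fl/fl library 2 and −0.11 without KO library 5, and −0.32 and −0.31 without fl/fl library 3 and KO library 4. Junb (chromosome 8 from 84974484 to 84978718), which restrains JUN in many settings, was measured at 858, 629 and 852 CPM in fl/fl libraries 1, 2 and 3 and 717, 754 and 742 CPM in KO libraries 3, 4 and 5. The 3 KO libraries lay close together between the extremes of the controls, and the log2 fold change was −0.077 (standard error 0.16, 95% interval −0.47 to 0.31). Jund (chromosome 8 from 70698949 to 70700616), the member of the family least dependent on stimulation, was measured at 453, 336 and 373 CPM in fl/fl libraries 1, 2 and 3 and 439.9, 347 and 395 CPM in KO libraries 3, 4 and 5. Its log2 fold change was 0.029 (standard error 0.13, 95% interval −0.28 to 0.33), with the narrowest interval among the members. The estimates were thus below 0 for Jun and Junb and above 0 for Jund, each with an interval that includes 0. Jun, Junb and Jund overlap Junos, Prdx2 and Gm11175 on the opposite strand, and the counting used strand.

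Egr1 (chromosome 18 from 34859823 to 34864984), an activator of growth and metabolic genes, was measured at 200.3, 201 and 160.4 CPM in fl/fl libraries 1, 2 and 3 and 173, 172 and 103 CPM in KO libraries 3, 4 and 5. KO library 5 stood below the other 5 libraries, and the remaining KO libraries lay within the range of the controls. The means were 187 ± 23.3 CPM in the fl/fl and 149 ± 40.3 CPM in the KO libraries (SD, n = 3 per genotype), and the log2 fold change was −0.33 (standard error 0.21, 95% interval −0.83 to 0.16). It was −0.13 without KO library 5 and −0.55 without KO library 4. Atf3 (chromosome 1 from 191170296 to 191218039), the stress-induced repressor, was measured at 473, 391 and 357 CPM in fl/fl libraries 1, 2 and 3 and 317, 386 and 413 CPM in KO libraries 3, 4 and 5. The extremes were the libraries of day 1, with fl/fl library 1 highest and KO library 3 lowest, and the log2 fold change was −0.13 (standard error 0.17, 95% interval −0.54 to 0.28). Without fl/fl library 1 it was 0.096, and without KO library 3 it was 0.087.

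Ier2 (chromosome 8 from 84661331 to 84662852), a short nuclear protein induced by serum, was measured at 66.5, 71.2 and 62.1 CPM in fl/fl libraries 1, 2 and 3 and 71.2, 64.8 and 48.7 CPM in KO libraries 3, 4 and 5. Of the 6 libraries, 5 lay within a narrow range and KO library 5 below it, and the log2 fold change was −0.12 (standard error 0.15, 95% interval −0.48 to 0.24). Ier3 (chromosome 17 from 35821684 to 35822923), an early response protein linked to cell survival, was measured at 196, 106 and 178 CPM in fl/fl libraries 1, 2 and 3 and 141, 167 and 216 CPM in KO libraries 3, 4 and 5. fl/fl library 2 was the lowest and KO library 5 the highest library. Its log2 fold change was 0.13 (standard error 0.27, 95% interval −0.51 to 0.77), the most positive of the 10, and it was −0.15 without fl/fl library 2 and −0.065 without KO library 5. Myc (chromosome 15 from 61985391 to 61990374) was measured at 93.2, 134 and 106 CPM in fl/fl libraries 1, 2 and 3 and 114, 115 and 89.2 CPM in KO libraries 3, 4 and 5. The lowest levels were in KO library 5 and fl/fl library 1, so either genotype held a low library, and the log2 fold change was −0.059 (standard error 0.17, 95% interval −0.47 to 0.36).

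Expressed as folds, the 95% intervals of the 10 genes reached from 0.509 (Fosb) to 1.71 (Ier3) times the control level. For Junb and Jund, the most abundant members, the intervals were 0.723 to 1.24 and 0.826 to 1.26 times. On counts simulated from these libraries, this test called 66% of 100 genes whose simulated log2 difference was 1 (14902 genes fitted). The simulation also held 100 genes changed by a log2 difference of 2, and changed genes ease the adjusted threshold for others. In the measured counts 0 genes were called, and Sucnr1 itself, at −2.23, had an FDR of 0.998. The simulated share therefore does not say how likely a member's change was to be called here.

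**Figure D3:**
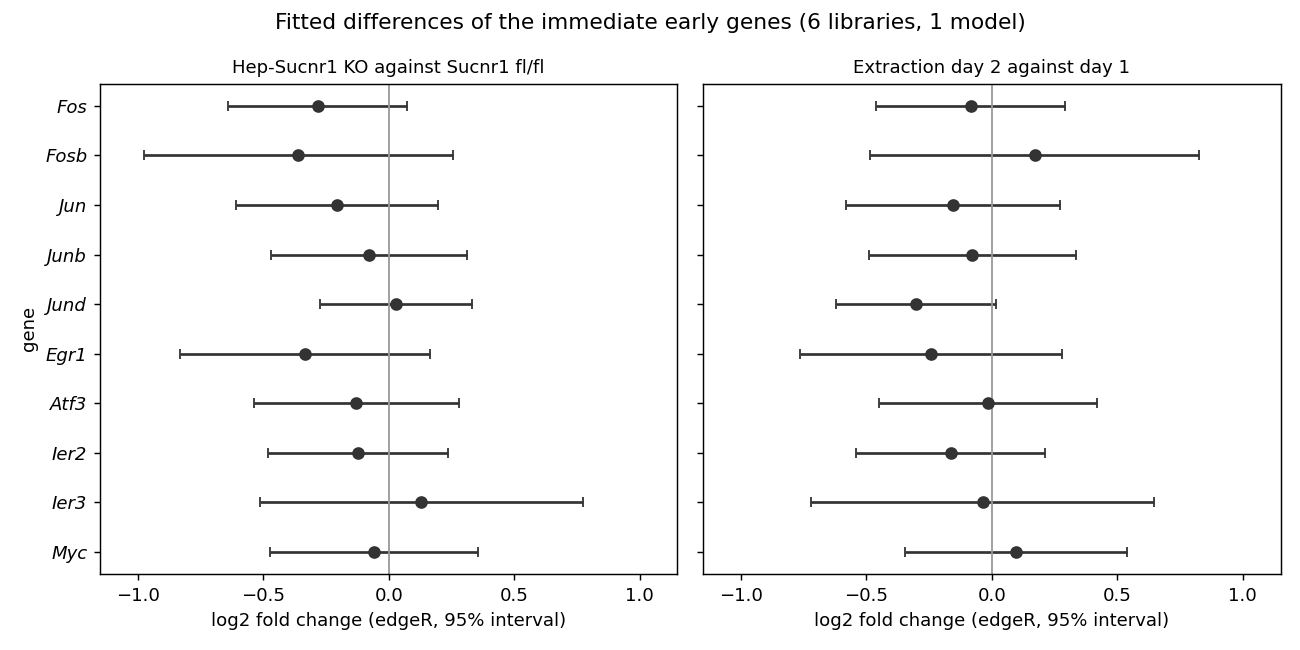
Log2 fold change of each immediate early gene with its 95% interval, for Hep-Sucnr1 KO against Sucnr1 fl/fl (left) and for extraction day 2 against day 1 (right), from 1 edgeR model of 6 libraries. Each of the 20 intervals includes 0.

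Sorted by library, the members formed opposite patterns. Jun, Egr1, Ier2 and Myc were all highest in fl/fl library 2 and lowest in KO library 5. Ier3 was the mirror image, lowest in fl/fl library 2 and highest in KO library 5. Fos, Junb, Jund and Atf3 were highest in fl/fl library 1, and Fosb joined Jun in its highest library and Fos in its lowest. In KO library 5 the log2 CPM of Egr1 deviated by −0.68 from the mean of the 6 libraries and that of Ier3 by 0.41. In fl/fl library 2 the deviations were 0.29 for Egr1 and −0.63 for Ier3. This sorting was made after the values were seen and was not tested. fl/fl library 1 was above the median of the 6 libraries for 9 of the 10 genes, with a median deviation of 0.22, and the median deviation of the other 5 libraries lay between −0.029 and 0.098.

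**Figure D4:**
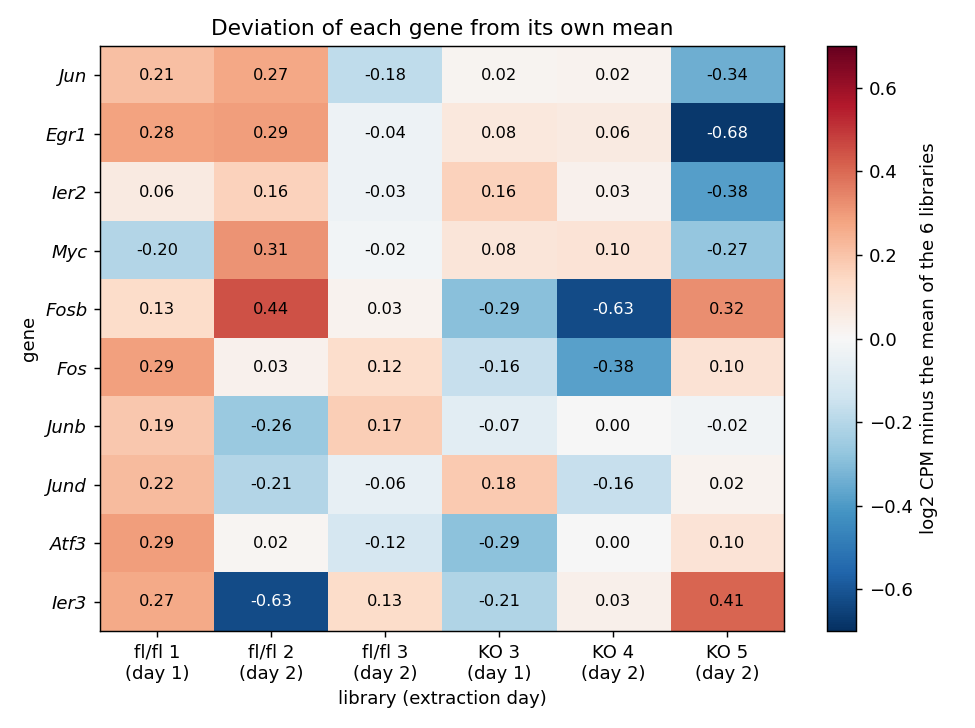
Log2 CPM minus its 6-library mean for each immediate early gene (rows) in each library (columns, with extraction day). Jun, Egr1, Ier2 and Myc share blue cells in KO 5 and red cells in fl/fl 2, and Ier3 shows the opposite colours there.

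The spread between libraries was also described without regard to genotype. The highest library exceeded the lowest by 1.35 times (Jund) to 2.11 times (Fosb). The SD of log2 CPM over the 6 libraries was 0.167 for Junb, 0.177 for Jund and 0.237 for Fos, beside a median of 0.245 over all genes tested. Of the 10 members, 3 exceeded that median, namely Fosb at 0.399, Ier3 at 0.371 and Egr1 at 0.356. The biological coefficient of variation, the spread left after genotype and day, was 0.141 for Jund and 0.243 for Ier3, the extremes of the members, with a median of 0.191 over all genes.

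Extraction day also left the members without a difference past the threshold. With the same edgeR model, 0 of 10 had an FDR below 0.05 for day 2 against day 1, beside 0% of all genes tested, and the members' FDR ran from 0.705 to 0.998. DESeq2 called 227 of all genes and 0 members. Before adjustment, 0 of 10 members and 7.49% of all genes had a day p below 0.05. Under 3 alternatives, DESeq2's Wald test, DESeq2's size factors and library size alone, 1 member (Jund) did. Jund came nearest, with a log2 fold change of −0.30 (standard error 0.13, 95% interval −0.62 to 0.018). It was the only member whose day 2 libraries all lay below the day 1 libraries, a pattern found in 6.29% of all genes. The median log2 fold change of day 2 against day 1 was −0.081 over the members and 0.017 over all genes.

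Within each day the genotype difference of several members pointed in opposite directions. On day 1, with 1 library of each genotype, the ratio of Hep-Sucnr1 KO to Sucnr1 fl/fl was 0.669 for Atf3, 0.719 for Ier3 and 1.22 for Myc. On day 2, with 2 libraries of each, it was 1.07, 1.35 and 0.851 for the same genes. The direction agreed between the days for 4 of the 10, Fos at 0.732 and 0.871, Fosb at 0.745 and 0.797, Jun at 0.876 and 0.863 and Egr1 at 0.865 and 0.760. The interaction of genotype and day, tested with edgeR's quasi-likelihood test, had an FDR below 0.05 for 0 members and 0% of all genes. Day 1 has 1 library of each genotype, so this fit takes its spread from the day 2 libraries alone and assumes that the day 1 libraries vary alike. Its unadjusted p was below 0.05 for 0 members and 3.69% of all genes, and the lowest member was Atf3 with an interaction of 0.68 (standard error 0.29) on the log2 scale. Library indexes fell into 2 series, with fl/fl libraries 1 and 2 in one of them and the other 4 libraries in the second, so index and genotype are partly confounded. With the index series as a further term the log2 fold changes of Fos, Fosb and Egr1 were −0.29, −0.087 and −0.17.

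Summed over each list, markers of other liver cells spanned wider ranges than the immediate early genes. The summed level of 10 Kupffer cell markers (Clec4f, Vsig4, C1qa and others, 0 of them at 0 in all libraries) ranged from 37.9 to 139 CPM in fl/fl libraries and from 8.32 to 121 CPM in KO libraries. By edgeR's quasi-likelihood test, markers differed by extraction day only before adjustment (lowest FDR 0.540 for Kupffer, 0.509 for neutrophil and stellate cell markers). The Kupffer cell sum was 42.1 CPM in fl/fl library 1 (day 1) and 37.9 CPM in fl/fl library 2 (day 2). At an unadjusted p below 0.05, 7 of 10 Kupffer cell markers and 2 of 3 neutrophil markers tested were higher on day 2. Among all genes the share was 7.49%, in either direction. The median log2 fold changes of these 2 lists were 2.07 and 2.57. Of 5 stellate cell markers tested, 3 were lower on day 2, with a median of −1.17. For genotype, 10 of 10 Kupffer cell markers had a log2 fold change below 0, where 50.5% of all genes were above 0. Their lowest unadjusted p by edgeR's quasi-likelihood test was 0.245, and the genotypes overlapped for each of them. Of the other markers tested, 7 of 8 endothelial and 4 of 5 stellate were below 0. The genotypes did not overlap, with KO lower, for 1 endothelial and 1 stellate marker, beside 4.04% of all genes. By edgeR's quasi-likelihood test 1 stellate marker was lower in KO at an unadjusted p of 0.0242 (FDR 0.998). Among all genes 1.81% were lower at an unadjusted p below 0.05. Above 0 were 3 of 4 cholangiocyte and 3 of 3 neutrophil markers. The sum of the 10 immediate early genes ranged from 2275 to 2742 CPM in fl/fl libraries and from 2298 to 2337 CPM in KO libraries. The highest library thus exceeded the lowest by 16.6 times for the summed Kupffer cell markers and by 1.21 times for the summed immediate early genes. Opposite patterns of members partly cancel in their sum. Single members ranged from 1.35 times (Jund) to 2.11 times (Fosb), beside 1.86 times for the cholangiocyte sum and 2.34 times for the endothelial sum. Sinusoidal endothelial markers (8 genes) summed to 19.7 to 46.2, stellate cell markers (7 genes) to 3.66 to 22.0 and neutrophil markers (5 genes) to 0.759 to 5.82 CPM over the 6 libraries. Cholangiocyte markers (5 genes), some of which cultured hepatocytes also express, summed to 350.0 to 650.2 CPM. fl/fl library 1, in which most members were above their median, also had the highest sums of the endothelial and stellate cell markers, and their part in the members' levels was not tested.

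**Figure D5:**
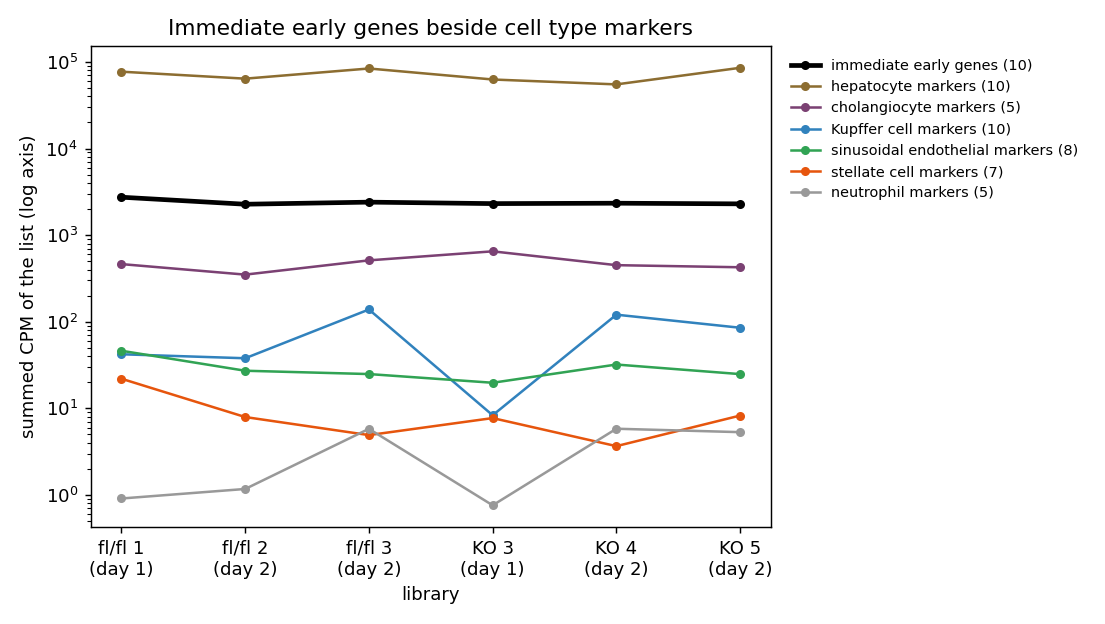
Summed CPM (log axis) of the 10 immediate early genes and of markers of 6 liver cell types in each library, with extraction day. The immediate early genes stay between 2275 and 2742 CPM while the Kupffer cell markers range from 8.32 to 139 CPM.

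Genes that act with the members were examined in 10 lists, of which 127 of 130 genes passed the filter. By edgeR's quasi-likelihood test 0 of them passed the FDR threshold. The unadjusted p was below 0.05 for 5, or 3.94% of those tested, near the 3.73% of all genes in either direction. All 5 were lower in Hep-Sucnr1 KO, where 1.81% of all genes were lower. The libraries did not overlap, with KO lower, for 11 of the 127 genes (8.66%, beside 4.04% of all genes), and for 0 with KO higher (beside 6.55%). The log2 fold change was above 0 for 38 and below 0 for 89 genes, so 29.9% were above 0, beside 50.5% of all genes. These counts describe lists whose genes are not independent of each other and were not tested. The 5 genes with an unadjusted p below 0.05 were Hspa1b and, named after their values were seen, Ier5, Csrnp1, Ccn1 and Spry1. Ccn1, a secreted matrix protein and target of SRF and YAP, was measured at 159.7, 157 and 157 CPM in fl/fl libraries 1, 2 and 3 and 126, 88.6 and 131 CPM in KO libraries 3, 4 and 5. The groups did not overlap, and its log2 fold change was −0.46 (standard error 0.16, 95% interval −0.85 to −0.067) with an FDR of 0.998. Hspa1b, an inducible heat shock gene that is raised by cell dissociation and shares near-identical sequence with Hspa1a, was measured at 152, 111 and 112 CPM in fl/fl libraries 1, 2 and 3 and 84.7, 101 and 94.2 CPM in KO libraries 3, 4 and 5. Its log2 fold change was −0.41 (standard error 0.16, 95% interval −0.78 to −0.037), also with an FDR of 0.998, and reads of either paralog can be uncertain. 

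Upstream of the members, Srf, the factor that binds the CArG boxes of many early genes, measured 53.5 ± 2.40 CPM in the fl/fl and 48.1 ± 4.95 CPM in the KO libraries (SD, n = 3 per genotype), with a log2 fold change of −0.16 (standard error 0.11). Over 12 upstream transcription factors (Srf, the ELK and CREB factors, the SRF coactivators and others) the median log2 fold change was −0.10, and over 18 kinases and receptors (Egfr, Met and the MAP kinases among them) it was −0.074. In each of these lists 0 genes reached an unadjusted p below 0.05. The libraries did not overlap, with KO lower, for 4 of 18 kinases and receptors and 1 of 12 upstream factors, beside 4.04% of all genes. With KO higher this held for 0 genes of either list, beside 6.55% of all genes. These genes are among the 11 already counted over the 10 lists, and the counts were not tested.

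Of the relatives of the members, Fosl2 measured 51.6 ± 5.98 CPM in the fl/fl and 52.1 ± 11.1 CPM in the KO libraries (SD, n = 3 per genotype), with a log2 fold change of 0.015 (standard error 0.16). The median over 8 other AP-1 and related factors was −0.020, with 4 genes above and 4 below 0. Among 17 other early response transcription factors 13 lay below 0, with a median of −0.13. Of these, Nr4a1, an orphan nuclear receptor, measured 20.4 ± 7.29 CPM in the fl/fl and 17.6 ± 3.77 CPM in the KO libraries (SD, n = 3 per genotype). Klf6, a Krüppel-like factor, was at 134, 143 and 132 CPM in fl/fl libraries 1, 2 and 3 and 131, 121 and 116 CPM in KO libraries 3, 4 and 5, so the genotypes did not overlap, by a margin of less than 1 CPM. Its log2 fold change was −0.15 (standard error 0.11, 95% interval −0.41 to 0.11). Cebpb, which is rapidly induced in regenerating liver, measured 587 ± 18.3 CPM in the fl/fl and 579.9 ± 67.8 CPM in the KO libraries (SD, n = 3 per genotype). The median was −0.15 over 16 early response signalling and secreted proteins.

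Among the feedback inhibitors of the early response, 0 passed the FDR threshold. Dusp1, the phosphatase that inactivates MAP kinases, measured 84.9 ± 14.1 CPM in the fl/fl and 73.8 ± 10.9 CPM in the KO libraries (SD, n = 3 per genotype), with a log2 fold change of −0.19 (standard error 0.14, 95% interval −0.52 to 0.14). Zfp36, which degrades AU-rich early response mRNAs, measured 431 ± 67.9 CPM in the fl/fl and 400.2 ± 55.2 CPM in the KO libraries (SD, n = 3 per genotype), with a log2 fold change of −0.10 (standard error 0.18, 95% interval −0.52 to 0.32). Over 19 such inhibitors the median log2 fold change was −0.18, with 15 genes below 0.

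Downstream, Max, the obligate partner of MYC, measured 32.7 ± 1.51 CPM in the fl/fl and 33.3 ± 3.79 CPM in the KO libraries (SD, n = 3 per genotype). The 9 partners and antagonists of MYC had a median log2 fold change of −0.19, and 14 growth genes known to respond to MYC, such as Ncl and Odc1, had a median of −0.012. Atf4, the stress factor that can induce Atf3, measured 149.8 ± 22.8 CPM in the fl/fl and 163 ± 19.0 CPM in the KO libraries (SD, n = 3 per genotype), and the 8 genes of the ATF4 and ATF3 axis had a median of 0.065. The median of 6 heat shock genes raised by dissociation was −0.057.

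Likeness to the members was measured as Pearson's r between a gene's log2 CPM and the mean of the members' standardized log2 CPM, over the 6 libraries and 11551 genes outside the lists. The 5 highest values were those of Btbd7 (0.993), Sh2b3 (0.992), Fn1 (0.989), Ago2 (0.988) and Plcxd2 (0.988). They are the extremes of a search over 6 points. The mean profile itself was 0.72, 0.12 and −0.00670 in fl/fl libraries 1, 2 and 3 and −0.14, −0.32 and −0.37 in KO libraries 3, 4 and 5, in units of each member's SD. On this scale, unlike for any single member or for their summed CPM, the genotypes did not overlap, with KO lower and fl/fl library 1 well above the rest. The 5 genes were chosen by their likeness to this profile. That their genotypes did not overlap, with KO lower, for 5 of 5 (beside 4.04% of all genes) follows largely from that choice. It is no further observation. As a score over chosen members, the profile is given without a test. The members themselves did not share the mean pattern closely, since r of each member with the mean of the other 9 lay between −0.353 (Myc) and 0.490 (Fos).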

How the data were processed

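Per the labels and the paper's methods, the authors trimmed the reads with Trim Galore 0.6.7, mapped them with STAR 2.7.10a (genome GRCm38) and used featureCounts (version not given in the sources used here) with the Ensembl annotation for stranded counting of pairs. The deposited values are raw counts, not normalized, in 6 libraries. Identifiers were matched to symbols (25130 matched, 54 not), and positions and exon lengths were taken from GENCODE M21 where it held the identifier. The filter kept genes whose mean DESeq2-normalized count exceeded 5. On these, edgeR 4.0.16 (R 4.3.3) applied TMM scaling and its quasi-likelihood test, with genotype and extraction day as terms and p values adjusted by Benjamini-Hochberg over all 15105 genes and a threshold of 0.05. Log2 CPM used a prior count of 2. Intervals of fold changes cover the spread between libraries as estimated by that model. Mean CPM was also compared by an exact permutation test (two-sided).

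DESeq2 1.42.0, other scalings, filters and covariates, and each library left out were alternatives. Libraries of a genotype differed beyond counting noise (chi-square per degree of freedom at least 45.6). On simulated counts the test called 14 of 14702 unchanged genes. The genes named were all members, Sucnr1, 10 genes of the lists fixed by identity, and the 5 genes most like the members. Ier5, Csrnp1, Ccn1 and Spry1 were named after their values were seen, for an unadjusted p below 0.05, and Fosl1 as the remaining FOS gene in the shares of that family. The members and lists were chosen with earlier results of these data known. Promoter sequences are from RefSeq (GRCm38.p6). Figures were drawn with matplotlib 3.10.9.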

Additional observations from a re-analysis of the deposited data

How the results depend on the processing

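No paired analysis was possible because the genotypes share only replicate number 3. In all 15 alternatives for genotype and 14 for extraction day, 0 members had an FDR below 0.05, and the lowest member FDR was 0.734 (Fos, without KO library 5) for genotype and 0.460 (Jund, DESeq2's Wald test) for day. The log2 fold change for genotype stayed negative throughout for Fos, Fosb and Egr1 and changed sign somewhere for the other 7. With the index series it was 0.063 for Jun, −0.035 for Jund, 0.081 for Atf3, −0.070 for Ier3 and 0.045 for Myc. It was −0.26 for Junb, with a median over the members of −0.068, and for day 0.069 for Atf3. With library size alone it was −0.000434 for Jund, and on day 2 alone 0.00797 for Junb and 0.086 for Atf3, with a median over the members of −0.22. The cause of these changes was not tested.

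With each library left out in turn the genotype log2 fold change ranged from −0.32 to −0.066 for Jun, from −0.22 to 0.027 for Junb, from −0.037 to 0.071 for Jund, from −0.23 to 0.096 for Atf3, from −0.24 to 0.019 for Ier2, from −0.15 to 0.43 for Ier3 and from −0.24 to 0.089 for Myc. The member median ranged from −0.22 to −0.10, and 1 member (Egr1) had an unadjusted p below 0.05 without KO library 4 and 2 (Fos and Fosb) without KO library 5. For day the log2 fold change ranged from −0.25 to 0.042 for Fos, from −0.069 to 0.33 for Fosb, from −0.25 to 0.061 for Junb, from −0.38 to 0.33 for Atf3, from −0.51 to 0.44 for Ier3 and from −0.16 to 0.33 for Myc. Jund had an unadjusted day p below 0.05 with DESeq2's Wald test, DESeq2's size factors and library size alone. The day median ranged from −0.21 to −0.058, with 5 to 9 members below 0. Over all genes, DESeq2's Wald test gave 13 genes with an adjusted p below 0.05 for genotype and 227 for day, against 0 with edgeR, 0 of them members. For genotype it gave Fosb no adjusted p. For day the count was 122 without a filter and ranged from 0 to 29 with a library left out, 29 without fl/fl library 2. With the length of the longest protein-coding transcript, chosen after seeing the data, the mean level of Fosb was 2.54, of Junb 419 and of Myc 46.4 CPM per kilobase.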
